A study of Arabidopsis thaliana with 6 samples.

Results

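The transcripts of 7 Arabidopsis thaliana genes that stood far lower on 1 of 3 control arrays are described here: AT5G23830, AT5G23840, AT4G22212, ATSBT5.2, AT1G30760, AT4G11610 and AT2G34020. The 7 genes are taken from 13286 genes that had a probe set of their own. They were chosen by their measured values, as genes at least 2 log2 units lower in mock replicate 3 than in mock replicate 1 that showed no rise with the compound NJ15. Each is measured by 1 probe set, in the same order 249812_at, 249814_at, 254361_at, 261224_at, 264527_at, 254876_at and 256712_at.

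The plants were whole seedlings of the wild type Col-0, grown upright on plates for 4 days. They were sprayed with mock solution or with 10 µM NJ15, the ethyl ester of a dichlorophenyl-tetrazole acetic acid, and turned by 90 degrees. RNA was collected after 8 h and hybridised to Affymetrix arrays, 3 for mock and 3 for NJ15. All 6 samples share the genotype, the rotation and the harvest time, and the labels call them biological replicates without saying whether they came from separate plates or days.

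Most of the 7 genes encode proteins of families that leave the cell or handle lipids and calcium. AT5G23830 and AT5G23840 are neighbouring genes for ML proteins, small proteins with a lipid-recognition fold of the kind that holds sterols or other lipids in a pocket. AT4G22212 encodes a defensin-like protein, one of the small cysteine-rich peptides that plants secrete. ATSBT5.2 (AT1G20160) encodes a subtilase, a protease of the cell wall space that can trim secreted peptide precursors. AT1G30760 encodes a berberine bridge enzyme-like flavoprotein, a secreted oxidase whose family acts on monolignols and sugars of the wall. AT4G11610 encodes a protein with several C2 domains, which bind lipids and calcium, and a membrane anchor, and AT2G34020 encodes a calcium-binding EF-hand protein. The last pair are not secreted proteins by family, so the 7 are joined by their values and not by 1 function.

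Values are given on a log2 scale, so that a difference of 1 is a doubling; the base rests on the range of the table, 5.30 to 14.04, since no source used here states it. Of 22746 tested probe sets, 16602 (73.0%) held 6 values within 0.01 of each other. These are called flat here and the other 6144 varying. A flat probe set says nothing on whether its transcript differed, and the step of the processing behind the flatness was not tested. All 7 genes varied, and no filter on low values was used. Array medians lay between 7.24 and 7.27. Mock replicate 3 differed from mock replicate 1 in both directions across the table, with 67 probe sets at least 2 log2 units lower and 113 at least 2 higher.

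In the lipid-recognition pair, AT5G23830 stood at 10.63, 10.35 and 8.31 in mock replicates 1, 2 and 3 and at 10.13, 9.22 and 9.76 in NJ15 replicates 1, 2 and 3. AT5G23840 stood at 9.53, 8.60 and 6.98 in mock and at 8.77, 7.85 and 8.16 in NJ15 seedlings, in the same order of replicates. Both genes were lowest in mock replicate 3 and highest in mock replicate 1, and in both NJ15 replicate 2 was the lowest of the treated arrays. The neighbours differed in mock replicate 2, which was 0.29 below mock replicate 1 for AT5G23830 and 0.93 below it for AT5G23840. NJ15 replicate 2 minus replicate 1 was nearly the same in both, at -0.91 and -0.92. Whether the probes of one gene also pick up the transcript of its neighbour was not tested.

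AT4G22212, the defensin-like gene, stood at 10.93, 10.02 and 8.57 in the mock arrays and at 10.16, 9.08 and 9.59 in the NJ15 arrays. Like AT5G23840 it was clearly lower in mock replicate 2 than in replicate 1, by 0.91, so that its 3 mock values were spread out instead of leaving replicate 3 alone. Its lowest NJ15 value was 0.51 above mock replicate 3, the smallest such gap of the 7 genes.

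ATSBT5.2, the subtilase, stood at 10.25, 10.05 and 7.41 in mock and at 9.98, 9.99 and 10.26 in NJ15 seedlings. Here the other 5 arrays lay close together and mock replicate 3 alone stood apart. The NJ15 values spanned 0.28, the narrowest of the 7 genes, and NJ15 replicate 3 exceeded the highest mock value by 0.0064. This subtilase is known to cleave the precursor of a peptide that limits stomatal development.

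AT1G30760, the berberine bridge enzyme-like gene, stood at 10.07, 9.95 and 6.47 in mock and at 9.70, 8.90 and 9.84 in NJ15 seedlings. It had the largest gap of the 7 genes between mock replicates 1 and 3, at -3.60 log2 units or a 12.1-fold difference in level. Mock replicate 2 was only 0.12 below mock replicate 1.

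AT4G11610, the gene with several C2 domains, stood at 8.92, 8.85 and 6.13 in mock and at 8.27, 7.36 and 8.21 in NJ15 seedlings. AT2G34020, the EF-hand gene, stood at 8.64, 8.51 and 5.63 in mock and at 7.81, 7.21 and 7.66 in NJ15 seedlings. For both, as for AT5G23830 and AT1G30760, the NJ15 arrays lay between mock replicate 3 and the other mock arrays, with no overlap on either side. The value of AT2G34020 in mock replicate 3 was near the bottom of that array, where 0.2% of the probe sets were lower, against 82.5% in mock replicate 1. For AT4G11610 the share of lower probe sets was 11.3% in mock replicate 3 and 86.3% in replicate 1, and for AT1G30760 it was 28.0% and 95.2%. At such low values the signal over background is unknown, since no scanner values were used here. AT5G23830 and AT4G22212 remained among the brighter probe sets of mock replicate 3, with 76.0% and 81.0% of probe sets lower.

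**Figure D1:**
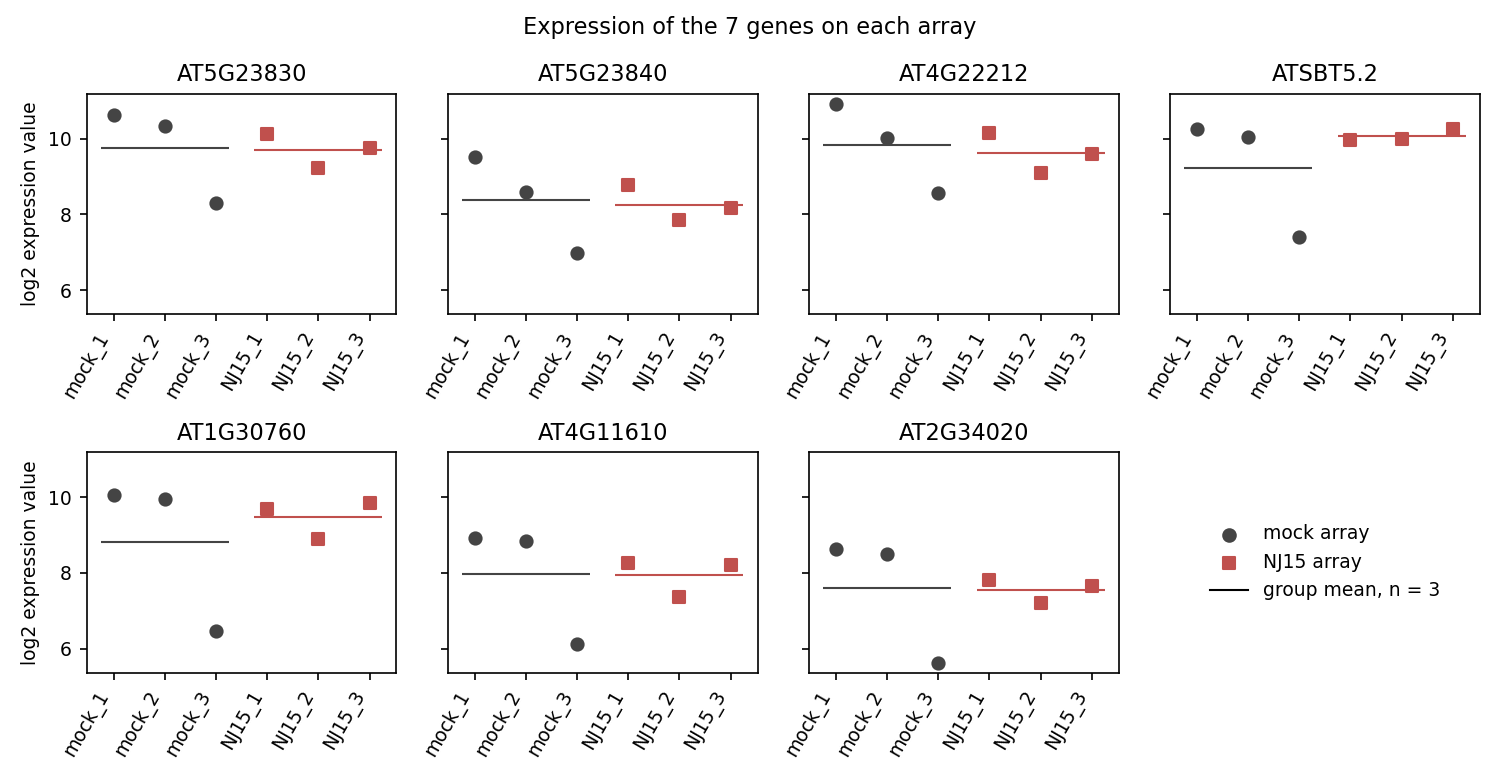
Each panel shows 1 gene, with the array on the horizontal axis and the log2 expression value on the vertical axis. Circles are mock arrays, squares are NJ15 arrays and lines are group means of 3 arrays. Mock replicate 3 is the lowest point in all 7 panels, and the other points of ATSBT5.2 lie between 9.98 and 10.26.

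The values that chose the genes are given as a description, with no test. Mock replicate 3 was lower than mock replicate 1 by 2.33 in AT5G23830, the member closest to the threshold, and the mean difference over the 7 genes was -2.78. The threshold of 2 log2 units was reached by 67 of the 22746 tested probe sets, a background of 0.295%, and by 1.09% of the varying ones. How the absence of a rise in NJ15 was judged is not stated. With the NJ15 mean set against the mean of mock replicates 1 and 2, 38 probe sets meet both conditions, 17 of them with 1 gene name, and all 7 genes are among these. The 7 genes are therefore not the complete set that this reading of the rule gives. The other 10 run from AT2G47780, a lipid droplet protein, at -3.63 to AT5G44440, a further berberine bridge enzyme-like gene, at -2.03, and include AT3G21770, a peroxidase, at -2.05. Just outside the threshold stood AT5G17350, AT4G27280 and ORA47, an ethylene response factor, at -1.98, -1.98 and -1.95. These 3 differ from the 7 genes, since their NJ15 means were above the mean of mock replicates 1 and 2, by 1.93, 1.49 and 1.38.

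**Figure D2:**
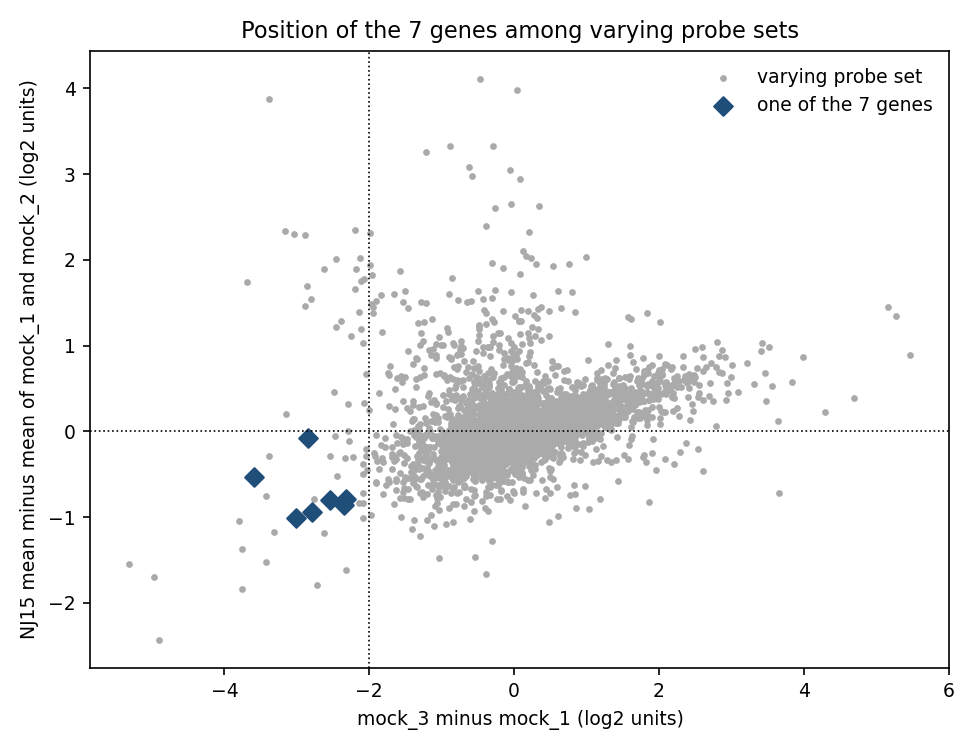
Each point is 1 of the 6144 varying probe sets. The horizontal axis gives mock replicate 3 minus mock replicate 1 and the vertical axis the NJ15 mean minus the mean of mock replicates 1 and 2, both in log2 units, and diamonds mark the 7 genes. Dotted lines mark the threshold at -2 and no difference at 0; the 7 genes lie in the lower left field with 31 other probe sets.

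The comparison of NJ15 with mock asked whether the compound changed these transcripts during the gravitropic response. Since the genes were chosen with this comparison in view, their differences are described and not tested. For 5 genes the group means lay close together. AT5G23830 had a mock mean of 9.76 ± 1.27 (SD, n = 3) and an NJ15 mean of 9.70 ± 0.46 (SD, n = 3). AT5G23840 had 8.37 ± 1.29 and 8.26 ± 0.47, and AT4G22212 had 9.84 ± 1.19 and 9.61 ± 0.54 (SD, n = 3 each). These differences of -0.06, -0.11 and -0.23 are far smaller than the spread between the mock arrays. AT4G11610 and AT2G34020 differed by -0.02 and -0.03, with mock SDs of 1.59 and 1.70. AT1G30760 and ATSBT5.2 had higher means in NJ15 than in mock, at 9.48 ± 0.51 against 8.83 ± 2.04 and at 10.07 ± 0.16 against 9.24 ± 1.59 (SD, n = 3 each). Their differences of 0.65 and 0.84 were also smaller than the mock SD. Choosing genes with a gap of at least 2 between mock arrays makes the mock SD large in advance. Nothing is therefore read from differences being smaller than it. The 2 groups overlapped in all 7 genes, where 12.5% of varying probe sets had groups that did not overlap; nothing is read from this, since the choice of the genes bears on it.

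The near equality of the means rests on mock replicate 3. Without it, the NJ15 mean was below the mock mean in all 7 genes, a direction that the rule as read above sets in advance. The log2 difference was then -1.01 in AT2G34020, -0.94 in AT4G11610, -0.86 in AT4G22212, -0.80 in AT5G23840, -0.79 in AT5G23830, -0.53 in AT1G30760 and -0.08 in ATSBT5.2. For AT1G30760 and ATSBT5.2 the direction turned, from 0.65 to -0.53 and from 0.84 to -0.08. The median difference over the 7 genes was -0.03 with all mock arrays and -0.80 without mock replicate 3, while the medians over the 6144 varying probe sets were -0.01 and -0.0014. All 3 NJ15 arrays lay below both mock replicates 1 and 2 in 4 of the 7 genes, AT5G23830, AT1G30760, AT4G11610 and AT2G34020, where the background was 17.6% of varying probe sets. The genes were chosen without a rise in NJ15 and with mock replicate 1 far above replicate 3. Both parts of the choice bear on these counts, differences and medians, and nothing further is read from them. Leaving out other single arrays moved the mean difference over the 7 genes, 0.15 with all arrays, to 0.67 without mock replicate 1, 0.49 without mock replicate 2, -0.0073 without NJ15 replicate 1, 0.36 without NJ15 replicate 2 and 0.09 without NJ15 replicate 3.

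**Figure D3:**
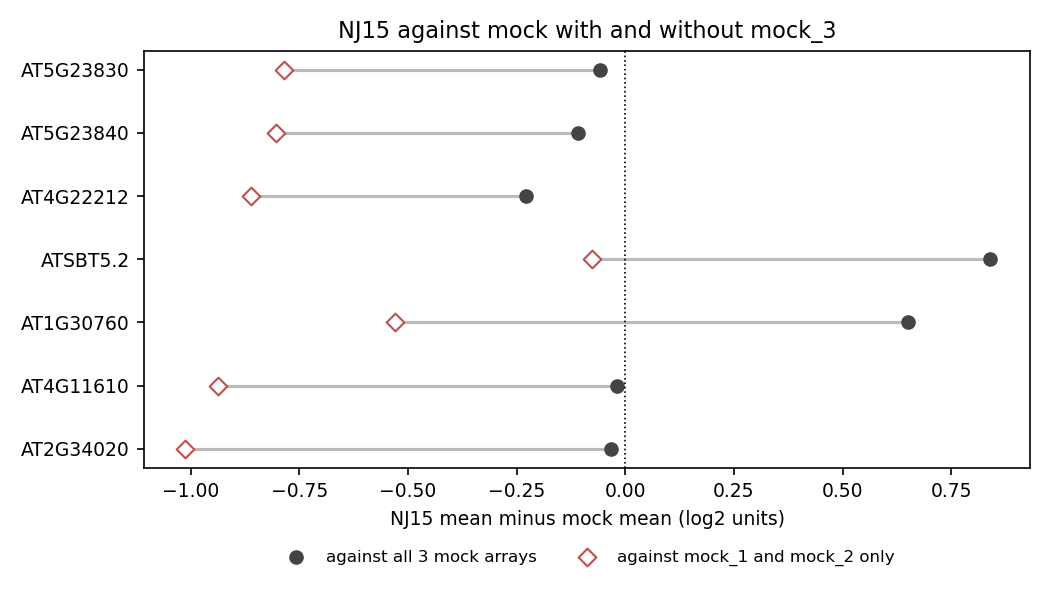
The horizontal axis gives the NJ15 mean minus the mock mean in log2 units for each of the 7 genes. Filled circles use all 3 mock arrays and open diamonds use mock replicates 1 and 2 only. The diamonds lie between -1.01 and -0.08, all below 0, while the circles lie between -0.23 and 0.84.

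The rule as worded names no difference among the NJ15 arrays, but it is not independent of them. Over the varying probe sets, deviations of mock replicate 3 from the mock mean were correlated with those of the NJ15 arrays. Pearson r was -0.523, 0.331 and 0.192 for NJ15 replicates 1, 2 and 3. The following values are therefore a description as well. NJ15 replicate 2 was the lowest treated array in 6 of the 7 genes, the exception being ATSBT5.2, where replicates 1 and 2 differed by 0.01. The median of NJ15 replicate 2 minus replicate 1 was -0.91 over the 7 genes and -0.01 over the varying probe sets, of which 52.2% were lower in replicate 2. NJ15 replicate 3 exceeded replicate 2 in all 7 genes, by 0.27 in ATSBT5.2 to 0.94 in AT1G30760, whereas 53.7% of the varying probe sets were lower in replicate 3. The mean difference of NJ15 replicate 3 from NJ15 replicate 1 was -0.19, against -2.78 between mock replicates 3 and 1. NJ15 replicate 3 was the lower in 5 of the 7 genes, down to -0.61 in AT5G23840, and in 53.0% of the varying probe sets. It was the higher in AT1G30760 and ATSBT5.2, by 0.14 and 0.28. These are differences between single arrays and have no replicate check.

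The NJ15 arrays were also closer to each other than the mock arrays. The SD over 3 arrays ran from 0.16 in ATSBT5.2 to 0.54 in AT4G22212 for NJ15 and from 1.19 in AT4G22212 to 2.04 in AT1G30760 for mock. The mock SD was the larger in all 7 genes, which the choice of the genes favours, and in 72.1% of the varying probe sets.

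Over the 6 arrays the 7 genes resembled each other, with Pearson r between 0.71 and 0.99 and a median of 0.93 over 21 pairs. These values share 1 very low array and describe the choice of the genes. Among 590 other genes with a range of at least 1 log2 unit, the 5 whose values over the 6 arrays were most like the mean of the 7 genes were AT1G62760, AT3G45700, GSTU26, AT4G16563 and AT1G10140, with r of 0.99, 0.99, 0.99, 0.99 and 0.98. AT1G62760 belongs to the family of pectin methylesterase inhibitors, AT3G45700 to the nitrate transporter family NPF, GSTU26 is a tau glutathione transferase and AT4G16563 an aspartyl protease. GSTU26, at 9.41, 9.06 and 7.32 in mock and 9.15, 8.24 and 8.84 in NJ15 seedlings, also meets the rule by which the 7 genes were chosen. The other 4 had smaller gaps between mock replicates 3 and 1, from -1.12 in AT1G62760 to -1.63 in AT4G16563.

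Markers of green tissue differed between the same arrays. Of 35 listed nuclear photosynthesis genes, 7 were measured and 6 varied, LHCB4.1, LHCB4.2, RCA, PRK, PSAE-1 and ATPC1, which encode antenna, Calvin cycle, photosystem and ATP synthase proteins. All 6 were highest in mock replicate 3, and 5 of the 6 were lowest in mock replicate 1. The shares of all varying probe sets that were highest or lowest on these arrays are not given here. All 6 were higher in mock replicate 3 than in replicate 1, while 50.8% of the varying probe sets were lower. Their mean level was 10.64, 11.45 and 12.01 in mock replicates 1, 2 and 3 and 10.98, 11.60 and 11.55 in NJ15 replicates 1, 2 and 3. The log2 of their summed linear level ran from 13.30 to 14.72 in mock and from 13.66 to 14.26 in NJ15 seedlings. The array with the most green marker signal was thus the one where the 7 genes were lowest. Within NJ15, replicate 1 had the lowest green marker mean and the highest mean of the 7 genes. The green marker means of NJ15 replicates 2 and 3 lay within 0.05 of each other, with LHCB4.2 higher in replicate 3. The 7 genes differed by a mean of 0.55 between replicates 2 and 3. The part of green tissue content in the low values of mock replicate 3 was not tested. In RNA from whole seedlings, fewer cells of a type and less RNA per cell cannot be told apart.

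Root markers gave little to set beside this. Named probe sets existed for 4 of the 28 listed genes, EXPA7 and EXPA18 were flat, and the other 2 went opposite ways. PYK10, an abundant root glucosidase, stood at 13.29, 13.32 and 13.05 in mock and FACT, an acyltransferase of root suberin, at 6.90, 7.32 and 7.68. The log2 of their summed linear level, nearly all of it from PYK10, ran from 13.09 in mock replicate 3 to 13.34 in mock replicate 2 and from 13.21 to 13.30 in NJ15 seedlings.

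**Figure D4:**
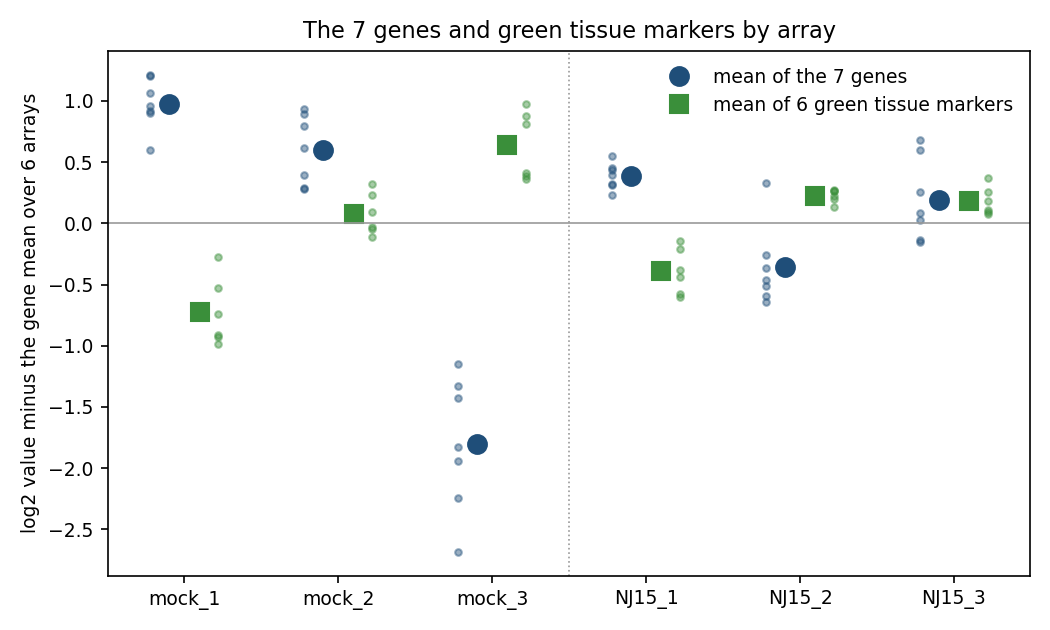
The horizontal axis gives the array and the vertical axis the log2 value minus each gene's own mean over 6 arrays. Large circles are the mean of the 7 genes, large squares the mean of 6 green tissue markers, and small points are single genes. The 7 genes have a mean of 0.98 in mock replicate 1 and -1.80 in mock replicate 3, where the green markers have -0.73 and 0.64.

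Relatives of the 7 genes were compared to see whether whole families stood low on the same array. The lists hold 99 further genes, and the array measured 75 of them with a named probe set, of which 21 varied. No relative passed the test of NJ15 against mock over all probe sets (limma, 0 of 75 in either direction). The background of calls was 0.193% of tested and, in a fit of its own, 0.0651% of varying probe sets. An unadjusted limma p under 0.05 was found for 3 of the 75, of which 2 varied. Over all 22746 tested probe sets, 1253 had such a p, so nothing is read from the 3. Among the 21 that varied, 13 were lower in mock replicate 3 than in replicate 1, with a median difference of -0.17, against 50.8% lower and a median of -0.0046 over all varying probe sets.

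In the ML family, 4 of 6 further genes were measured and 2 varied, neither passing the test. AT2G16005, known as the sterol-binding protein ROSY1 with a role in root gravitropism, stood at 10.05, 8.23 and 8.04 in mock and at 10.10, 9.67 and 8.40 in NJ15 seedlings. It was low in both mock replicates 2 and 3, unlike AT5G23830, and also in NJ15 replicate 3. Its mock mean was 8.77 ± 1.11 and its NJ15 mean 9.39 ± 0.88 (SD, n = 3), a log2 fold change of 0.62 that did not pass (limma, adjusted p = 0.983). AT3G11780 spanned 0.18 over all arrays.

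In the berberine bridge enzyme-like family, 21 of 26 further genes were measured and 8 varied. Of these 8, 7 were lower in mock replicate 3 than in replicate 1 and 6 had their lowest value there, as did 29.5% of all varying probe sets. AT5G44440 stood at 10.71, 10.67 and 8.68 in mock and at 10.74, 10.08 and 9.91 in NJ15 seedlings, so that mock replicate 3 alone stood apart as in AT1G30760. AT1G26380, known as FOX1 of the defence pathway that makes indole cyanogens, stood at 8.21, 7.74 and 6.89 in mock and at 8.50, 7.56 and 7.44 in NJ15 seedlings. Neither passed NJ15 against mock, with log2 fold changes of 0.22 and 0.22 (limma, adjusted p = 1 for each).

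No other varying subtilase came near the gap of ATSBT5.2 between mock replicates 3 and 1, the lowest being SBT4.12 at -0.56. ATSBT5.2 was chosen by this gap, which sets it apart in advance, so nothing is read from the contrast. Of 47 further genes 37 were measured and 9 varied, and 3 of the 9 were lower in mock replicate 3 than in replicate 1. AT4G21650 and AT5G44530, the subtilases with the widest ranges, were highest there, at 5.74, 5.99 and 7.37 and at 6.49, 6.34 and 7.48 in the mock arrays. In NJ15 seedlings they lay between 5.92 and 6.05 and between 6.53 and 6.59. Outside mock replicate 3, AT4G21650 lay below the lower quartile of the arrays, 6.40 to 6.41, and AT5G44530 lay near it. At such low values the signal over background is unknown. None of the 9 passed the test of NJ15 against mock (limma).

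Of 15 further genes with several C2 domains, 13 were measured and 2 varied. AT3G57880 stood at 7.96, 8.02 and 8.002 in mock and at 8.78, 9.05 and 8.67 in NJ15 seedlings. The groups did not overlap, which 12.5% of varying probe sets showed as well, and the log2 fold change of 0.84 (SE 0.12) did not pass over all probe sets (limma, adjusted p = 0.388) or over the varying ones alone (adjusted p = 0.106). AT3G57880 was thus as high in mock replicate 3 as in the other mock arrays, where AT4G11610 was not. AT4G00700 stood at 7.89, 7.93 and 7.02 in mock and at 7.90, 7.56 and 7.84 in NJ15 seedlings. Like AT4G11610 it was lowest in mock replicate 3, with a smaller difference from replicate 1, at -0.86.

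No other defensin-like gene next to AT4G22212 had a named probe set. Of 24 loci within 2 places of the 7 genes on the chromosome, 6 had one, and all 6 were flat, among them AT5G23850 beside the lipid-recognition pair and the subtilase gene AT1G20150 beside ATSBT5.2. AT5G23820, the third ML gene at that place, had no named probe set here.

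**Figure D5:**
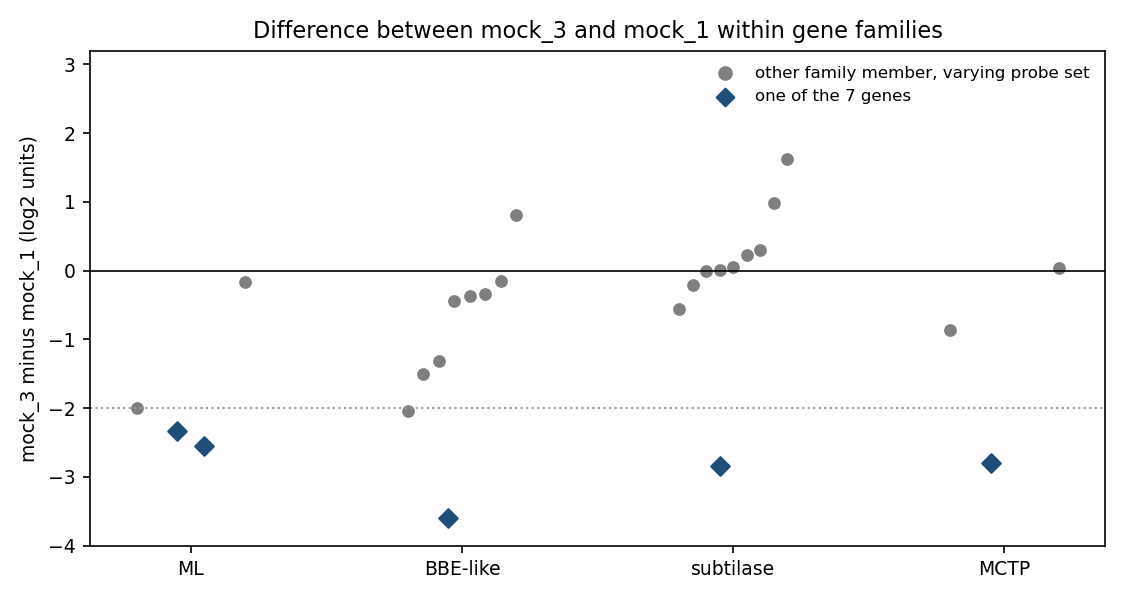
Each point is 1 varying gene of the ML, berberine bridge enzyme-like (BBE-like), subtilase or several-C2-domain (MCTP) family, and the vertical axis gives mock replicate 3 minus mock replicate 1 in log2 units. Diamonds are the 5 of the 7 genes that belong to these families and the dotted line marks -2. Subtilases other than ATSBT5.2 lie between -0.56 and 1.63.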

How the data were processed

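The 3 mock and 3 NJ15 seedling samples were measured on 1 array each. Per the labels' protocols, an Affymetrix kit made biotin-labelled RNA from 100 ng of total RNA, and R 2.7.2 is named by the submitters' processing notes. The authors deposited expression values, 1 for each probe set on each array, which are read here as log2. How background, normalization and summarization were handled is not given in the sources used here. With 3 arrays in a group, precision is limited by their number.

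These values were used unchanged, without pseudocount or filter, and 64 control probe sets of 22810 were left out. The test of NJ15 against mock used limma 3.58.1 (lmFit, eBayes) under R 4.3.3. It was two-sided, with Benjamini-Hochberg adjusted p-values over 22746 probe sets and a threshold of 0.05. Before the fit, 1 array's value was subtracted from each probe set to keep rounding noise out. The fit was tested on simulated data. P-values set the group difference against the spread between these samples, which may be technical in part.

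Gene names are those of the platform annotation, brought up to date with a TAIR10.1 gene table that served for names and gene order only: 13513 probe sets had 1 gene, 503 several and 8730 were not listed, so unnamed here. A gene measured by more than 1 probe set was represented by its brightest one over all arrays. The 7 genes, the lists and the alternatives were chosen with earlier results of these data known. Named were the 7 genes, per family up to 2 relatives with the widest range, the 5 genes most like the mean of the 7, the 3 genes just outside the threshold and measured neighbours; other genes were named after their values were seen. Alternatives were quantile normalization, centring, a filter on dim probe sets, varying probe sets only, a trended robust prior, the replicate block, leaving out each array, and an adjusted p under 0.1. No alternative background correction or slide block was run. Figures used matplotlib 3.10.9 in Python 3.11.15.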

Additional observations from a re-analysis of the deposited data

How the results depend on the processing

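The limma count over all probe sets, 44 for NJ15 against mock, was 49 at an adjusted p under 0.1 but did not hold otherwise: it was 0 after quantile normalization (3347 with an unadjusted p under 0.05), 0 with the trended robust prior (886), 1 without the dimmest 25% of probe sets, 4 over varying probe sets, 17165 after centring, which shifts flat probe sets too, and 4 to 15 without single arrays (11, 4 and 15 without mock replicates 1, 2 and 3, and 7, 4 and 7 without NJ15 replicates 1, 2 and 3). With the replicate block it was 0 (1208 with an unadjusted p under 0.05). Whether the replicate numbers pair the samples is not known. Deviations from the group means of same-numbered arrays correlated at 0.586, -0.305 and 0.192 over 6144 varying probe sets. Mock replicate 1 correlated best with NJ15 replicate 1, and mock replicates 2 and 3 with NJ15 replicates 3 and 2. Deviations from a mean of 3 arrays constrain each other, so these correlations cannot settle the pairing. Family genes called stayed at 0 (limma) except after centring, with 56. The block left the mean difference of the 7 genes at 0.15; without single arrays it ran from -0.72 to 0.67. Quantile normalization and centring gave 0.13 for it, -2.82 and -2.79 for mock replicate 3 minus 1 and -0.18 and -0.19 for NJ15 replicate 3 minus 1. Judged by the mean of all mock arrays, a reading chosen after seeing the data, the rule was met by 21 probe sets in place of 38, with 5 of the 7 genes. A pseudocount did not apply to log values.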
